A study of Mus musculus with 14 samples.

Results

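The D-type cyclins Ccnd1, Ccnd2 and Ccnd3 were picked by gene symbol and make up 3 of the 31054 genes in the deposited single-cell count tables. Each symbol had 1 row. In GRCm38, Ccnd1 (ENSMUSG00000070348) lies on the minus strand of chromosome 7 from 144929931 to 144939925, Ccnd2 (ENSMUSG00000000184) on the minus strand of chromosome 6 from 127125162 to 127152193, and Ccnd3 (ENSMUSG00000034165) on the plus strand of chromosome 17 from 47505051 to 47599691. They were followed in 80250 cells that passed quality limits, out of 150188 barcodes in 14 libraries.

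The study sorted TdTomato-positive cells of the Atoh1 lineage from C57BL/6J mice. Whole hindbrains were taken at E14.5 and E18.5 from control embryos (Atoh1Cre/+; Rosa lsl-tdTomato/+) and from Atoh1S193A/- embryos (Atoh1Cre/S193A; Rosa lsl-tdTomato/+), with 3 libraries of 1 embryo each per genotype and stage, and same-numbered libraries were littermates. Pontine nuclei were dissected from control pups at P5, pooled over 11 to 13 pups in each of 2 libraries. The Cre cassette replaces the Atoh1 coding region, so every animal carried 1 null copy of Atoh1 and the controls were heterozygous rather than wild type. Cre driven from the Atoh1 locus labels every descendant of an Atoh1-expressing cell, so cerebellar, pontine and other rhombic lip derivatives were mixed in the embryonic libraries. Atoh1 itself was at 55.4 to 136.6 CPM over all kept cells of the E14.5 controls and 86.2 to 142.7 CPM in Atoh1S193A/-. The allele changes 1 amino acid and 3′ tags do not read it, so these levels do not check the genotype labels.

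D-type cyclins bind the kinases Cdk4 and Cdk6 in G1. The complexes phosphorylate the retinoblastoma family of pocket proteins and release E2F factors, which switch on the genes of S phase. In granule cell progenitors of the cerebellum, Sonic hedgehog raises Ccnd1 and Ccnd2 through Gli factors and Mycn. Pontine neurons come from the caudal rhombic lip, whose cells express Hox genes, while the cerebellar rhombic lip lies in front of the Hox domain and is Hox-negative.

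Libraries held 108239001 to 236964126 UMIs, and 3248 to 8726 cells per library were kept with median depths of 12010.5 to 20924 UMIs per cell. Cells were clustered within each stage with the 3 cyclins left out of the clustering genes, and clusters were grouped by Hox sum, dividing-cell genes and lineage markers. At E14.5, 1440 cells formed a Hox-positive progenitor-like class (71, 115 and 82 cells in the controls and 356, 315 and 501 in Atoh1S193A/-) and 6670 formed a Hox-negative progenitor-like class. The summed Hox level was 700 to 1022 CPM (UMI counts scaled to the summed UMIs of the class in each library) in the Hox-positive class and 41.7 to 64.5 CPM in the Hox-negative class. At E18.5, 12325 Hox-negative progenitor-like cells were found, and no cluster met the limits for a Hox-positive progenitor. The Hox-positive class was a single cluster whose first leading gene was Ccnd1 itself, although the cyclins did not enter the clustering. Its other leading genes included Fgf15, a gene of the rostral Hox-negative marker list, beside Vgll3, Id3 and Slc1a3. Of the 6 genes of that list, 1 was higher and 5 were lower than in the Hox-negative class in all 3 embryos of each genotype. The class rests on its Hox sum and dividing-cell genes, and whether its cells are pontine was not tested. Within the Hox-negative E14.5 class, a pair of clusters led by Nts and Sp5 or by cell cycle genes held Neurod1, and a second pair led by Rspo1 and Cenpf did not. These proportions differed between libraries, and the Rspo1-led cluster made up 60.6% of the class in Atoh1S193A/- replicate 2.

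Hox-positive and Hox-negative progenitor-like cells of E14.5 differed in their main D-type cyclin. Hox-positive progenitor-like cells carried Ccnd1 with little Ccnd2, and Hox-negative progenitor-like cells carried Ccnd2 with little Ccnd1. The division was weaker when single cells were sorted by Hox UMIs in place of clusters: Ccnd2 was then at 287 to 524 CPM in control Hox-positive cells and exceeded Ccnd1 in replicate 3. Ccnd3 was low in both. In the cluster classes the same arrangement was found in control and Atoh1S193A/- embryos.

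In control Hox-positive progenitor-like cells, Ccnd1 was at 1108, 1596 and 1146 CPM in replicates 1 to 3, with a mean of 1284 ± 272 (SD, n = 3). In the Hox-negative class of the same embryos it was at 86.1, 53.0 and 85.6 CPM. The 2 classes did not overlap, and the level in Hox-positive cells was 12.9, 30.1 and 13.4 times that in Hox-negative cells of the same library. edgeR's quasi-likelihood test with the library as a block gave a log2 difference of 4.13 (SE 0.17, 95% interval 3.76 to 4.51, Benjamini-Hochberg FDR 1.6e-09). This contrast called all 3 cyclins, against a background of 20.2% of 10267 genes tested.

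Ccnd2 ran the other way. It was at 15.8, 65.8 and 17.2 CPM in control Hox-positive progenitor-like cells and at 1068, 1184 and 1218 CPM in Hox-negative ones. The level in Hox-negative cells was thus 67.4, 17.98 and 71.0 times that in Hox-positive cells, with a log2 difference of -5.0 (SE 0.23, 95% interval -5.50 to -4.50, FDR 4.3e-09, edgeR). Control replicate 2 had the highest Ccnd2 level in the Hox-positive class and the smallest fold, and without it the log2 difference was -6.06.

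Ccnd3 differed far less. Its levels were 37.2, 48.2 and 29.9 CPM in control Hox-positive and 58.8, 64.7 and 41.6 CPM in control Hox-negative progenitor-like cells. The ranges of the classes overlapped, but each embryo was lower in the Hox-positive class, by 1.58, 1.34 and 1.39 times. The log2 difference was -0.47 (SE 0.11, FDR 0.00794, edgeR), and the call was lost with DESeq2 (FDR 0.0878), without control replicate 1 or 3, with a mitochondrial limit of 10% (-0.31) and with only the Neurod1 clusters of the Hox-negative class (-0.26). At Leiden resolution 2, which makes finer clusters, it was -0.81 and called.

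**Figure D1:**
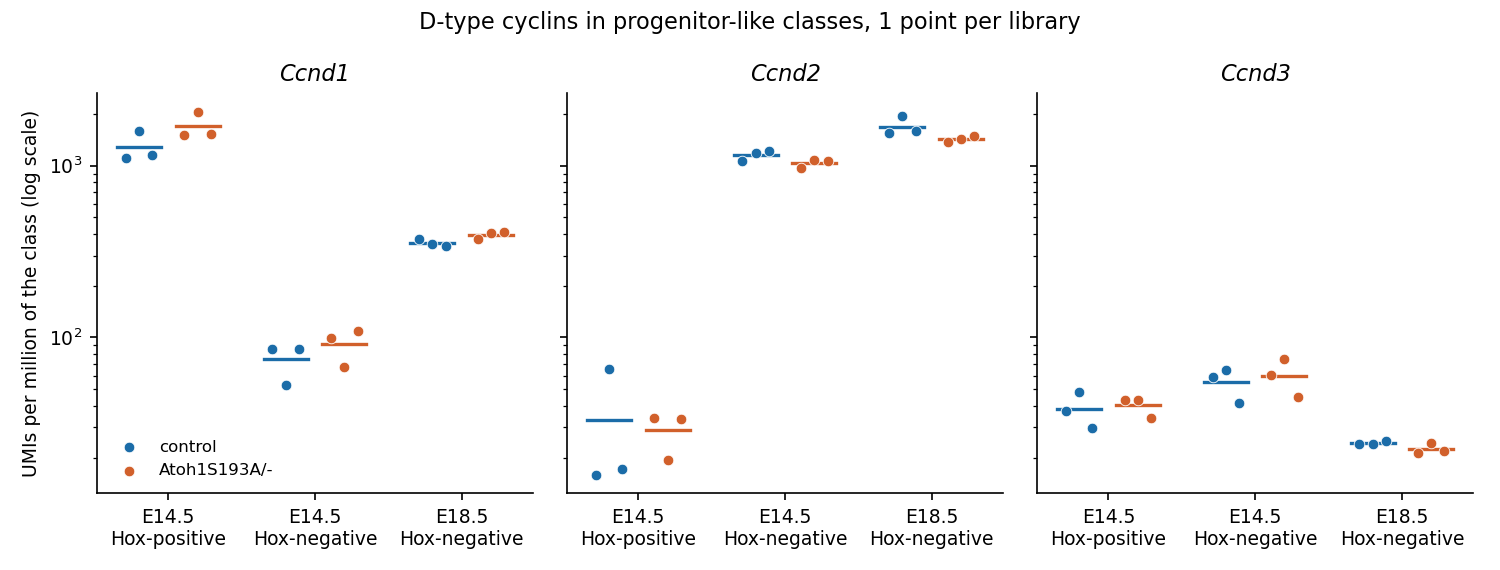
Levels of Ccnd1, Ccnd2 and Ccnd3 in CPM (log axis) in 3 progenitor-like classes, with 1 point per library and a line at the mean of each genotype. Ccnd1 sits at 1108 to 2063 CPM in E14.5 Hox-positive cells and at 53.0 to 109.6 CPM in E14.5 Hox-negative cells, while Ccnd2 takes the opposite places.

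In Atoh1S193A/- embryos, Ccnd1 was at 1505, 2063 and 1534 CPM in Hox-positive and at 99.1, 67.1 and 109.6 CPM in Hox-negative progenitor-like cells. The log2 difference was 4.26 (SE 0.26, FDR 0.000891, edgeR). Ccnd2 was at 34.2, 19.2 and 33.7 CPM against 965, 1084 and 1072 CPM, a log2 difference of -5.14 (SE 0.21, FDR 0.000344). The mutant contrast also called Ccnd3, at -0.51 (SE 0.10, FDR 0.0249), so that 3 of 3 cyclins were called against 16.1% of 10465 genes. The Ccnd3 call was lost without Atoh1S193A/- replicate 1 (-0.56, FDR 0.141) or 3 (-0.59, FDR 0.0817). The difference between genotypes in these contrasts was 0.10 for Ccnd1 (95% interval -0.71 to 0.92), -0.08 for Ccnd2 (-1.12 to 0.95) and -0.05 for Ccnd3 on the log2 scale. None of the 3 was called, and edgeR called 0 of 10575 genes here (418 at an unadjusted p under 0.05, and 6 by DESeq2), or 81 with littermates as a block.

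The classes also differed in other cell-type lists. In controls the neural progenitor list summed to 10475 to 13476 CPM in Hox-positive against 5331 to 6853 CPM in Hox-negative cells, with 12 of 18 genes higher in all 3 embryos. The astroglia list gave 1115 to 1635 against 532 to 855 CPM (8 of 12 genes higher). The neuron list gave 510 to 826 against 2239 to 2871 CPM (14 of 16 genes lower), and the unipolar brush cell list 8.95 to 24.3 against 431 to 492 CPM (5 of 5 lower). The part of these lists in the cyclin difference was not tested. How many of all genes lay one way in all 3 embryos was not counted. When the Hox-negative class was restricted to its Neurod1 clusters, Ccnd2 still differed by -5.03 on the log2 scale. When single cells were sorted by a gate of at least 3 Hox UMIs in place of clusters, both differences stayed called but shrank, to 2.99 for Ccnd1 and -1.74 for Ccnd2 in controls. The gated Hox-positive control cells held 741 ± 292 CPM Ccnd1 and 378 ± 128 CPM Ccnd2 (SD, n = 3). Their Ccnd1 share of D-type cyclin UMIs was 63.7%, 75.7% and 47.8%, and their Ccnd2 share 32.005%, 20.3% and 49.0%, so that Ccnd2 was slightly above Ccnd1 in control replicate 3. In gated Atoh1S193A/- cells the Ccnd1 share was 80.1%, 92.3% and 82.6% and the Ccnd2 share 16.5%, 5.17% and 14.9%, without overlap with the controls. The gate held 440 control and 1312 Atoh1S193A/- cells, against 268 and 1172 in the cluster class, so some gated cells lay outside that class. Their part in these shares was not tested. Because the classes came from the other genes of the same cells, these p-values describe the classes as grouped.

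In the classes made from clusters, Ccnd1 made up, as a share of all D-type cyclin UMIs, 95.4%, 93.3% and 96.1% in control Hox-positive progenitor-like cells and 7.10%, 4.07% and 6.37% in Hox-negative ones. Ccnd2 made up the reverse, 2.22% on average in the first and 89.9% in the second class. In Atoh1S193A/- embryos the Ccnd1 shares averaged 96.0% and 7.74%. With 3 embryos, an exact sign-flip permutation test on the paired shares cannot go below p = 0.25, the value reached for Ccnd1 in both genotypes.

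The division was also seen cell by cell. After each cell was thinned to 8000 UMIs, 78.9% to 84.3% of control Hox-positive progenitor-like cells held Ccnd1 UMIs and none of Ccnd2, and 4.29% to 8.70% held both. Among control Hox-negative cells, 66.1% to 72.3% held only Ccnd2 and 20.9% to 27.7% held both. The ranges in Atoh1S193A/- were 78.6% to 86.6% with only Ccnd1 in the Hox-positive class and 61.7% to 68.3% with only Ccnd2 in the Hox-negative class. As a background, Hox-positive migrating neuron-like cells of the controls, a class low for dividing genes, were read at the same depth. Of these cells 2.48% to 3.68% held only Ccnd1 and 3.42% to 5.41% only Ccnd2. Their full median depths were 16360.5 to 19194.5 UMIs, against 18956.5 to 21418 in control Hox-positive progenitor-like cells. Thinning left out 7 control and 12 Atoh1S193A/- cells of the Hox-positive and 73 and 19 of the Hox-negative class. Without thinning, 74.8% to 83.1% of control Hox-positive cells held only Ccnd1 and 54.9% to 63.1% of control Hox-negative cells only Ccnd2. The median thinned Hox-positive progenitor-like cell held 7.5, 12 and 7 Ccnd1 UMIs in the controls and 10, 16 and 10 in Atoh1S193A/-. The median for Ccnd2 was 0 in each of these 6 libraries.

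**Figure D2:**
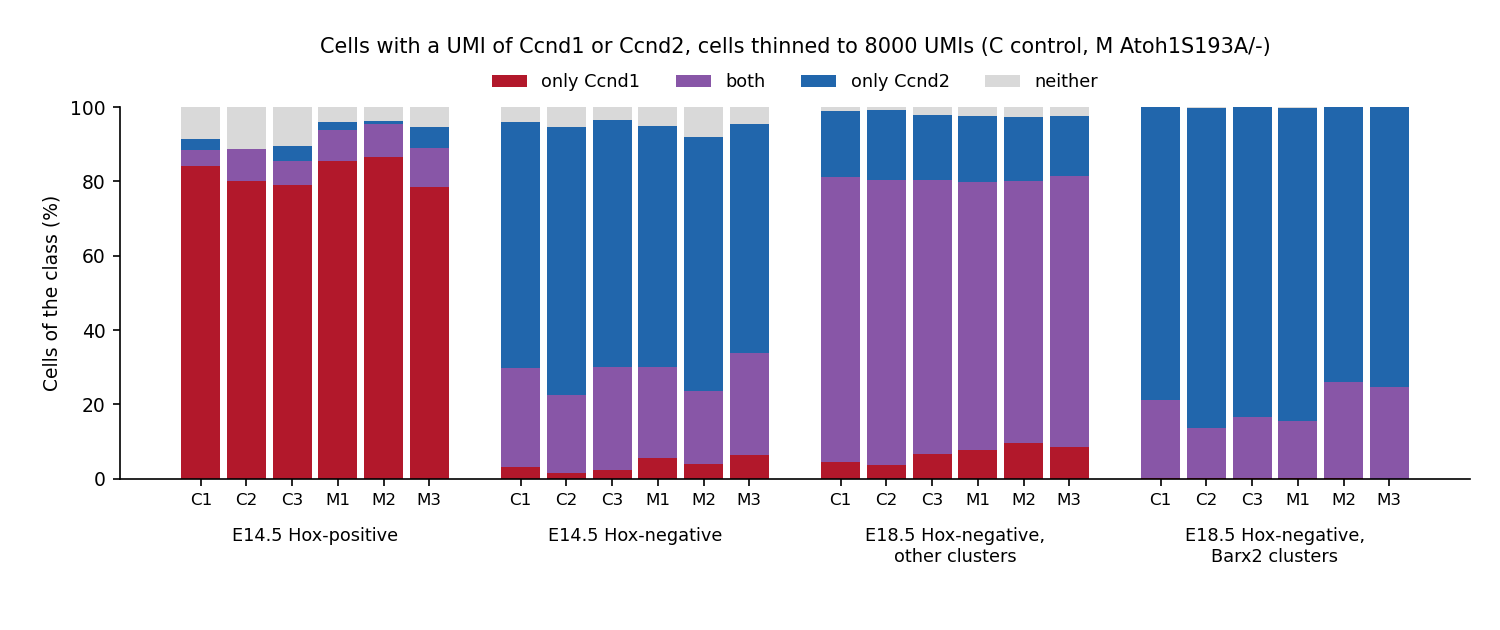
Share of cells (percent) with UMIs of only Ccnd1, of both Ccnd1 and Ccnd2, of only Ccnd2 or of neither, after thinning each cell to 8000 UMIs. Each bar is 1 library (C, control, and M, Atoh1S193A/-). Bars of E14.5 Hox-positive cells are mostly only-Ccnd1, bars of E14.5 Hox-negative cells are mostly only-Ccnd2, and at E18.5 cells with both prevail outside the Barx2 clusters.

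The kinase partners, inhibitors and targets of these cyclins were read in the same contrasts. Of 39 pathway genes, 33 passed the detection filter. In controls 8 of them were higher and 7 lower in Hox-positive progenitor-like cells (median log2 difference -0.02), and in Atoh1S193A/- 8 were higher and 4 lower, against backgrounds of 9.62% higher and 10.6% lower and of 8.54% and 7.55%. The kinase Cdk4 was not called in either genotype (-0.20 and -0.14). Cdk6 was at 0 to 6 UMIs per control library and 2 to 17 per Atoh1S193A/- library in Hox-positive cells, and at 11.3 to 17.8 CPM in Hox-negative cells over both genotypes. It passed the detection filter through the Hox-negative class alone, so its place among the genes called lower carries no weight. Cdkn1a, the p21 inhibitor, was higher in Hox-positive cells by 2.03 (FDR 8.49e-07) and 2.49 (FDR 0.000344). Cdk1, the mitotic kinase, was higher by 0.44 and 0.56. Of the other inhibitors of this family, Cdkn1c was higher by 0.90 in controls, where it was called, and by 0.87 in Atoh1S193A/-, where it was not (FDR 0.113), and Cdkn1b was called in Atoh1S193A/- (0.29). Gli1 did not pass the detection filter. The B-type cyclins of mitosis were higher as well, Ccnb1 by 0.50 and 0.71 and Ccnb2 by 0.34 and 0.56. Ccne1, the cyclin that follows the D-type cyclins, was lower by -0.49 and -0.53, and Mycn by -0.44 and -0.69. The classes differed in phase: 64.8%, 67.0% and 72.0% of control Hox-positive cells were high for a list of G2 and mitosis genes. In control Hox-negative cells these shares were 51.9%, 61.6% and 54.3%. The part of phase in the pathway differences was not tested.

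Ccnd1 and Ccnd2 were each highest in the S-phase cells of the E14.5 class that used them. In control Hox-positive progenitor-like cells Ccnd1 was at 1764 ± 482 CPM in cells high for the S-phase list and at 1250 ± 268 CPM in cells high for the G2 and mitosis list (SD, n = 3). In each of the 3 embryos the S-phase value was the higher, though it rests on only 16, 21 and 14 cells in replicates 1 to 3. In control E14.5 Hox-negative cells Ccnd2 was at 1526 ± 130 CPM in S, 1156 ± 124 CPM in G2 and mitosis and 709 ± 103 CPM in cells high for neither list. Ccnd1 in that class went 84.7 ± 26.3, 65.8 ± 17.4 and 98.1 ± 21.7 CPM, with overlapping ranges. Hox-positive cells high for neither list were enough for a value only in control replicate 2 (17 cells, Ccnd1 at 975 CPM). These are descriptions, since the same cells and UMIs define the phase groups.

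**Figure D3:**
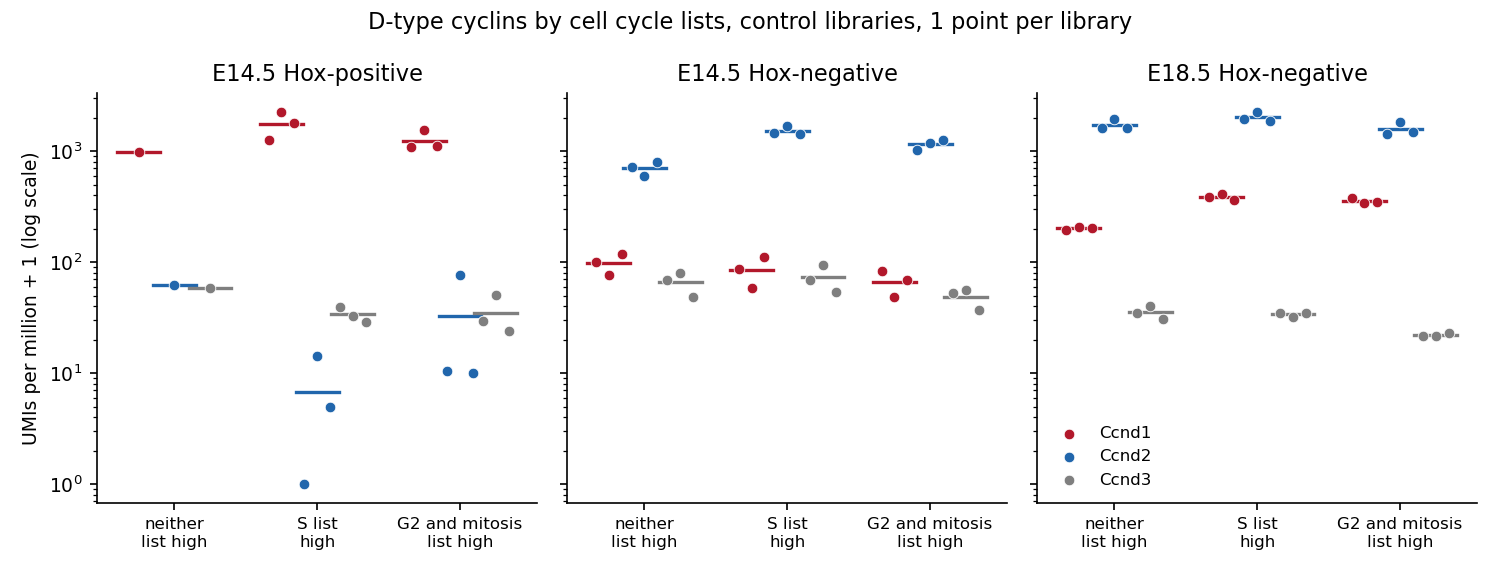
Ccnd1, Ccnd2 and Ccnd3 (CPM + 1, log axis) in control progenitor-like cells high for the S list, high for the G2 and mitosis list, or high for neither, with 1 point per library. Ccnd1 is the highest member at each point of the E14.5 Hox-positive class, where cells high for neither list have 1 library, and Ccnd2 the highest in each phase of both Hox-negative classes.

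The genotype comparison within each class asked whether the mutant allele, in which a serine of Atoh1 is replaced by alanine, shifts cyclin use. In E14.5 Hox-positive progenitor-like cells Ccnd1 averaged 1284 ± 272 CPM in controls and 1701 ± 314 CPM in Atoh1S193A/- (SD, n = 3 each), and the ranges overlapped. Without pairing, the log2 difference was 0.35 (SE 0.15, 95% interval 0.01 to 0.70, FDR 1, edgeR). With littermates as a block it was 0.36 and called (FDR 0.0215), with each mutant above its littermate. Ccnd2 gave -0.29 (-1.30 to 0.71) and Ccnd3 0.00 (-0.40 to 0.39), and neither was called in either fit. With the gate of at least 3 Hox UMIs in place of clusters, the genotypes did not overlap: Ccnd1 was at 512 to 1071 CPM in controls and 1121 to 1768 CPM in Atoh1S193A/- (log2 difference 0.88, SE 0.24, FDR 0.288, edgeR), and Ccnd2 at 287 to 524 against 99.0 to 231 CPM (-1.05, SE 0.34, FDR 0.419). Neither was called. More cells passed the gate than were in the cluster class (440 against 268 in controls, 1312 against 1172 in Atoh1S193A/-). The part of cells from other clusters in the gated differences was not tested. In the cluster class the unpaired fit called 1 of 10107 genes (0.00989%), which was none of the cyclins, and the blocked fit 106. In the cluster class the inhibitory neuron list stood at 14.46 to 21.0 against 21.6 to 50.3 CPM (1 of 7 genes higher without overlap). In the neural progenitor list, Sox2 and Wnt1 were higher and 1 of 18 genes was lower without overlap. Its sums overlapped (10475 to 13476 against 9936 to 12674 CPM). In the astroglia list, Slc1a3 and Ttyh1 were higher, and its sums overlapped as well (1115 to 1635 against 1160 to 1570 CPM). Of the neuron list 1 of 16 genes was lower, and 2 of 11 oligodendrocyte lineage genes were higher. Barhl1 was lower (112 to 136 against 20.1 to 35.2 CPM). The part of these genes and lists in the Ccnd1 value was not tested. The share of all genes without overlap was not computed.

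In E14.5 Hox-negative progenitor-like cells the log2 differences between genotypes were 0.28 for Ccnd1 (-0.32 to 0.87), -0.18 for Ccnd2 (-0.43 to 0.07) and 0.10 for Ccnd3 (-0.37 to 0.58). edgeR called 0 of 10246 genes without pairing (583 at an unadjusted p under 0.05, and 81 by DESeq2). With littermates as a block 395 genes were called, Ccnd1 among them (0.28, FDR 0.0368), and each mutant was above its littermate. The class was made up of different clusters in the genotypes: the Rspo1-led cluster was 19.6%, 38.4% and 13.7% of it in controls and 29.6%, 60.6% and 25.1% in the littermate Atoh1S193A/- embryos. Ccnd1 did not overlap within either part of the class. It was at 70.3 to 103.7 against 109.6 to 133.7 CPM in the Neurod1 clusters (log2 difference 0.45, SE 0.17, FDR 0.999, edgeR without pairing). In the others it was at 30.4 to 36.7 against 44.3 to 63.9 CPM. No fit with littermates as a block was run on these parts. Beside this, the roof plate and choroid plexus list stood at 132 to 296 CPM in controls and 350 to 565 CPM in Atoh1S193A/- (1 of 7 genes without overlap). The neuron list stood at 2239 to 2871 against 1004 to 1872 CPM (9 of 16 genes lower without overlap). The share of all genes without overlap was not computed. The part of the lists in the Ccnd1 value was not tested.

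Ccnd1 was lower in the Hox-positive classes that were low for dividing genes. Intermediate progenitor-like cells (1544 cells, high for Atoh1 and low for dividing genes) held 41.1, 82.7 and 38.4 CPM in controls, and migrating neuron-like cells 5.48, 6.56 and 7.15 CPM. Hox-positive neuron-like cells stood higher again, at 40.9, 37.1 and 71.1 CPM, although Ccnd2 was at only 2.97, 1.69 and 5.65 CPM there. Ccnd3 went from 38.4 ± 9.25 CPM in progenitor-like to 27.9 ± 2.86 CPM in intermediate, 15.1 ± 0.44 CPM in migrating and 13.0 ± 2.60 CPM in neuron-like cells (SD, n = 3), so that it was the most abundant D-type cyclin of migrating cells. The steps between states are descriptions, without a test.

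In intermediate progenitor-like cells the Ccnd1 levels of the genotypes did not overlap, and the share of all genes without overlap was not computed. Ccnd1 was at 171.8, 128.0 and 134.4 CPM in Atoh1S193A/- embryos, each above every control library. The log2 difference was 1.44 (SE 0.26, 95% interval 0.85 to 2.02), and it missed the threshold without pairing (FDR 0.0733, edgeR). With littermates as a block it was 1.502 and called (FDR 0.00181), and DESeq2 called it without a block (1.41, FDR 0.0385). Ccnd2 (21.0, 68.8 and 21.2 against 32.5, 24.0 and 28.2 CPM) and Ccnd3 (31.0, 27.0 and 25.5 against 31.0, 23.3 and 24.5 CPM) overlapped between genotypes and were not called. In all, 27 of 9226 genes (0.293%) were called, 0.13% higher and 0.163% lower, or 262 with the block.

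As a share of D-type cyclin UMIs, Ccnd1 went from 44.1%, 46.3% and 45.1% in control to 73.0%, 73.0% and 71.8% in Atoh1S193A/- intermediate progenitor-like cells. The mean shares were 28.7% against 14.2% for Ccnd2 and 26.1% against 13.2% for Ccnd3. An exact permutation test gave p = 0.1 for each of the 3 genes, the smallest that 3 against 3 embryos allow (adjusted p = 0.2625 over 21 share tests). These shares rest on 317 to 1427 UMIs per library. As a mean of the shares of single cells, Ccnd1 was lower, at 15.1%, 28.0% and 27.5% in controls and 45.3%, 36.0% and 39.7% in Atoh1S193A/-, still without overlap. Ccnd3 was then the largest member in the controls (60.2%, 41.1% and 52.6%), and the Ccnd2 shares overlapped (24.8%, 30.9% and 19.9% against 15.3%, 28.2% and 22.3%). The share of thinned cells with at least 3 Ccnd1 UMIs was 3.07%, 6.57% and 2.12% in controls and 12.6%, 12.9% and 10.4% in Atoh1S193A/-. The median cell held 0 Ccnd1 UMIs in both genotypes, so the Ccnd1 UMIs sat in a minority of the cells.

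Several other measures were read beside Ccnd1 in the intermediate cells. The neural progenitor list went from 2946 to 3368 CPM over controls to 3605 to 4430 CPM over Atoh1S193A/- (4 of 18 genes higher without overlap: Sox2, Hes5, Notch1 and Msx1), and the neuron list went from 1962 to 2361 to 1385 to 1583 CPM (6 of 16 genes lower). The roof plate and choroid plexus list stood at 55.3 to 77.9 against 119 to 312 CPM, with Gdf7 at 0 throughout. The share of dividing cells (2.33% to 4.29% against 2.19% to 6.41%) and the median depth (14721 to 17344 against 16630 to 19035.5 UMIs) overlapped between genotypes. The part of these measures in the Ccnd1 difference was not tested. The share of all genes without overlap was not computed. Of 19 pathway genes tested in these cells, 1 was called, Cdkn1a, at 1.08 on the log2 scale (FDR 0.0287, edgeR): it was at 59.6, 66.0 and 48.8 CPM in controls and at 141, 127 and 104 CPM in Atoh1S193A/-.

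**Figure D4:**
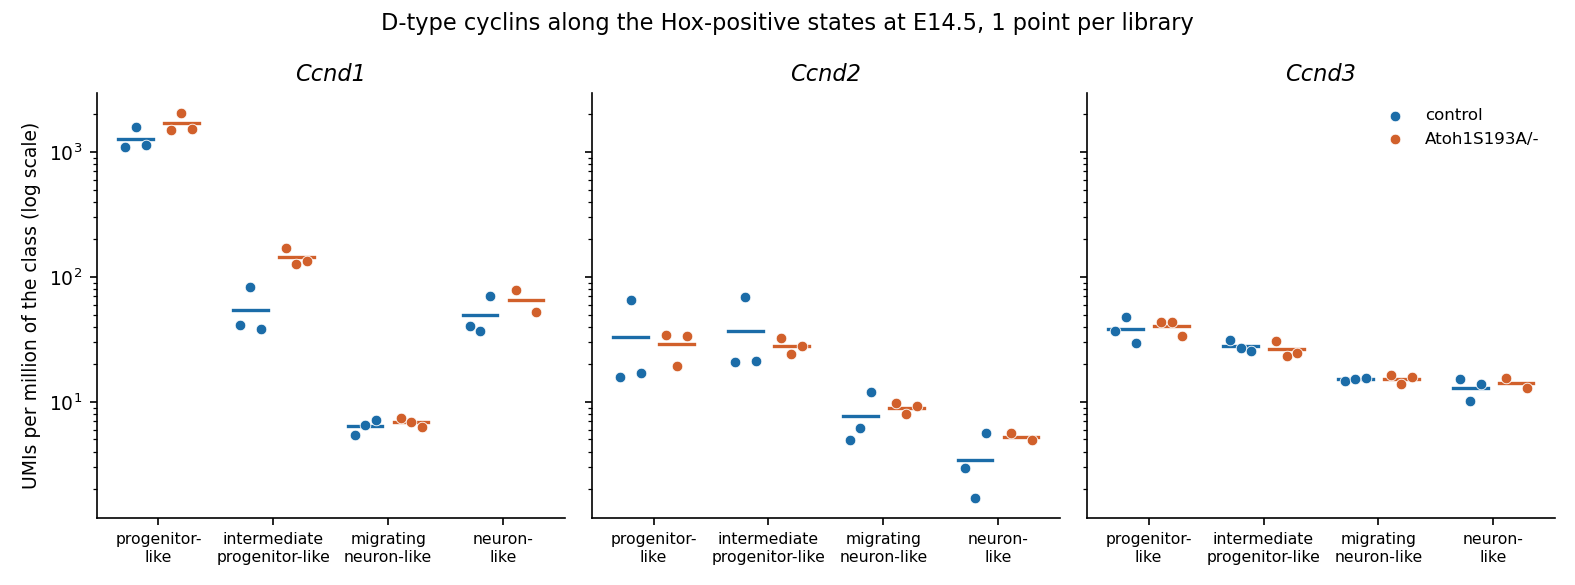
Ccnd1, Ccnd2 and Ccnd3 (CPM, log axis) in the 4 Hox-positive states of E14.5, by genotype, with 1 point per library. The Ccnd1 points of control and Atoh1S193A/- libraries are apart in intermediate progenitor-like cells and overlap in the other 3 states.

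Over all kept E14.5 cells, Ccnd1 was at 62.9, 53.9 and 49.4 CPM in controls and 182.3, 141.6 and 170.5 CPM in Atoh1S193A/-. The log2 difference was 1.55 (95% interval 1.23 to 1.87, FDR 0.056, edgeR, where 0.00977% of 10240 genes were called) and 1.54 with littermates as a block (FDR 0.00357). With the block Ccnd2 (0.35, FDR 0.0171) and Ccnd3 (0.41, FDR 0.0158) were called too, among 1752 genes. Hox-positive progenitor-like cells were 1.25% to 2.19% of control cells and supplied 31.7% to 67.7% of their Ccnd1 UMIs, against 4.56% to 7.62% of cells and 66.9% to 81.8% of Ccnd1 UMIs in Atoh1S193A/-. Hox-negative progenitor-like cells supplied 71.8% to 88.4% of the Ccnd2 UMIs of each E14.5 library. Within the Hox-positive class itself the Ccnd1 means were 1284 and 1701 CPM with overlapping ranges, and the parts of cell number and of level per cell in the pooled difference were not tested. In migrating and neuron-like cells edgeR called 0 of 9591 and 0 of 9910 genes between genotypes (288 and 341 at an unadjusted p under 0.05, and 3 and 0 by DESeq2), and the Ccnd1 differences were 0.05 and 0.18 on the log2 scale. Atoh1S193A/- replicate 2 had no neuron-like cells and did not enter the last fit.

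The Hox-negative progenitor-like class held more Ccnd1 at E18.5 than at E14.5, beside high Ccnd2 at both stages. In controls Ccnd1 went from 74.9 ± 19.0 to 354 ± 16.1 CPM (371.9, 349.2 and 340.7 CPM at E18.5), a log2 rise of 2.22 (SE 0.18, FDR 9.88e-05, edgeR). Ccnd2 went from 1157 ± 78.5 to 1690 ± 216 CPM (0.53, SE 0.13, FDR 0.0103). Ccnd3 fell from 55.0 ± 12.04 to 24.2 ± 0.552 CPM (-1.19, SE 0.14, FDR 0.000553). None of the 3 genes overlapped between stages in the controls, and the share of all genes without overlap was not computed. All 3 were called, but the stage contrast called 45% of 10196 genes, so the calls do not set the cyclins apart from other genes. Their share of D-type UMIs went from 5.85% to 17.2% for Ccnd1 and from 89.9% to 81.6% for Ccnd2 (exact permutation p = 0.1 for each, the smallest possible). The classes of the 2 stages also differed in make-up. In controls the roof plate and choroid plexus list went from 132 to 296 CPM at E14.5 to 13.3 to 19.1 CPM at E18.5, the neural progenitor list from 5331 to 6853 to 2792 to 2955 CPM, the astroglia list from 532 to 855 to 262 to 277 CPM and the inhibitory neuron list from 8.003 to 11.8 to 124 to 149 CPM. Their part in the cyclin changes was not tested. Clusters under 200 CPM Neurod1 were 729 of 2527 control cells at E14.5 and 99 of 5951 at E18.5. These were unlike clusters, led by Rspo1 and Cenpf at E14.5 and by Pvalb, Pdlim3 and Fst at E18.5. Ccnd2 was at 1033 CPM (range 891 to 1303) in the E14.5 ones and 210 CPM (range 103 to 321) in the E18.5 ones. Ccnd3 was at 70.6 and 74.2 CPM. In the Neurod1 clusters alone the log2 differences between stages were 1.93, 0.53 and -1.01 for Ccnd1, Ccnd2 and Ccnd3, each called.

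Of 33 pathway genes tested between the stages, 16 rose and 4 fell (backgrounds 22.9% and 22.1%, median log2 difference 0.26). Cdk6 rose by 2.91 (FDR 3.8e-06), and Cdk4 fell by 0.59 on the log2 scale (FDR 0.00175). Of the Hedgehog readouts, the receptor Ptch1 rose by 2.32 and Gli2 by 1.70. Gli1 was at 0.55, 0.62 and 0.49 CPM (7 to 13 UMIs per library) at E14.5 and at 31.7, 29.2 and 25.4 CPM at E18.5, and it passed the detection filter through the E18.5 group alone, so its call carries no weight and its fold is uncertain. Cdkn1c, the p57 inhibitor, fell by 2.27 on the log2 scale, while Cdkn1a, Cdkn1b and Cdkn2c rose by 0.55, 0.58 and 0.95. Mycn was not called (0.25, FDR 0.394).

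Within the E18.5 class, the share of Ccnd1 differed between parts, while Ccnd2 was the larger member in both. Clusters with Barx2 of at least 50 CPM, a limit chosen after their values were seen, held Ccnd2 at 2704, 3382 and 2963 CPM and Ccnd1 at 64.4, 47.2 and 48.1 CPM in the controls. The other clusters held Ccnd2 at 1001, 1234 and 918 CPM and Ccnd1 at 518, 496 and 482 CPM. Ccnd1 was thus 1.37% to 2.31% of the D-type UMIs in the first and 28.2% to 33.7% in the second set, with no overlap. The Barx2 clusters made up 33.9% to 34.5% of the class in controls and 26.9% to 35.9% in Atoh1S193A/-. Low Ccnd1 came with low Cdk6 (8.90 ± 2.06 against 130 ± 13.6 CPM) and low Gli1 (11.5 ± 0.811 against 37.1 ± 4.70 CPM). In the thinned controls, cells with both cyclins were 13.5% to 21.0% of the Barx2 clusters and 73.6% to 76.7% of the others (18.9% to 30.2% and 84.5% to 89.9% without thinning). All of these are descriptions, since clusters were formed from the same cells.

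Because no cluster was a Hox-positive progenitor at E18.5, the regional comparison could be made there only by the gate of at least 3 Hox UMIs, which kept 280 dividing cells. In controls these held Ccnd1 at 51.1 ± 43.6 CPM and Ccnd2 at 2110 ± 200 CPM (SD, n = 3), a difference from Hox-negative cells of -3.13 (SE 0.22) and 0.36 (SE 0.05) on the log2 scale. Both signs were the opposite of those at E14.5 under the same gate (2.99 and -1.74). In Atoh1S193A/-, of which 2 libraries had enough gated cells, Ccnd1 was at 89.5 and 225.9 CPM and made up 5.29% and 12% of D-type UMIs, against 0.570% to 4.01% in controls. The shares did not overlap and the levels did. The log2 difference between genotypes of 1.498 (SE 0.64) was not called (edgeR without pairing). Of the 280 cells, 240 (85.7%) lay in the 3 Barx2 clusters or in another cluster with 30.6 CPM Barx2, so that the gate at this stage and the Barx2 split share most of their cells. The Barx2 clusters, with 110, 69 and 48 of the gated cells, were themselves classed as Hox-negative progenitor-like. The gated contrast at E18.5 therefore does not compare the classes set apart at E14.5, and a change of cyclin with stage in Hox-positive progenitors was not tested. Whether these cells are pontine was not tested.

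Between genotypes at E18.5, Ccnd1 and Ccnd2 of the Hox-negative progenitor-like cells did not overlap but differed by small amounts. The share of all genes without overlap was not computed, so the lack of overlap does not set the cyclins apart from other genes. Ccnd1 was at 374.8, 405.2 and 409.1 CPM in Atoh1S193A/- (log2 difference 0.14, 95% interval 0.00 to 0.29), Ccnd2 at 1383, 1423 and 1492 CPM (-0.26, -0.51 to -0.02, FDR 0.679) and Ccnd3 at 21.2, 24.5 and 21.7 CPM (-0.13, -0.32 to 0.06). No member was called, with or without the block, against 0.377% of 9806 genes. The Ccnd1 share was 17.2% ± 2.02 in controls and 21.4% ± 0.41 in Atoh1S193A/- (SD, n = 3), with no overlap. The exact permutation p was 0.1, the smallest possible without pairing of littermates. In the clusters below the Barx2 limit it was 28.2% to 33.7% against 34.9% to 36.4%, also without overlap, and in the Barx2 clusters 1.37% to 2.31% against 1.93% to 3.00%, with overlap. The levels overlapped in both parts, Ccnd1 at 482 to 518 against 515 to 541 CPM and Ccnd2 at 918 to 1234 against 920 to 946 CPM below the limit, and Ccnd1 at 47.2 to 64.4 against 45.6 to 88.2 CPM and Ccnd2 at 2704 to 3382 against 2297 to 2958 CPM in the Barx2 clusters. The neuron list stood at 2178 to 2219 against 2367 to 2480 CPM (2 of 16 genes higher and 2 lower without overlap), and 4 of 17 granule lineage genes were higher and 3 lower. The mesenchyme list (41.7 to 60.2 against 67.4 to 81.0 CPM) and the oligodendrocyte lineage list (105 to 129 against 142 to 165 CPM) share Pdgfra, which was at 40.1 to 58.7 against 64.5 to 73.2 CPM. The make-up of the class differed too: the small clusters led by Pvalb, Pdlim3 and Fst, which were under 200 CPM Neurod1 and together held 210 CPM Ccnd2 in controls and 103 CPM in Atoh1S193A/-, were 0.891% to 1.33% and 0.328% to 0.724% of the class in controls against 2.33% to 2.86% and 0.966% to 1.76% in Atoh1S193A/-. In the Neurod1 clusters alone, Ccnd1 was at 343 to 373 against 378 to 415 CPM and Ccnd2 at 1561 to 1966 against 1430 to 1549 CPM, again without overlap. The part of the lists in the cyclin values was not tested. The change of the genotype difference from E14.5 to E18.5 was -0.13, -0.08 and -0.23 for Ccnd1, Ccnd2 and Ccnd3, and edgeR called 0 of 10491 genes (692 at an unadjusted p under 0.05, and 39 by DESeq2), or 249 with the block, none of the cyclins among them.

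The clusters of the control libraries were ranked by each member. At E14.5 Ccnd1 was highest in the Hox-positive progenitor-like cluster (1284 ± 272 CPM). A cluster led by the collagen genes Col3a1 and Col1a2 followed at 364 ± 101 CPM and then a Hox-negative progenitor-like cluster at 104 ± 21.5 CPM, with no overlap between these neighbors. In all, 3 of 32 clusters reached 100 CPM and 19 were under 10 CPM. Ccnd2 reached 100 CPM in 8 of 32 clusters, led by the 4 Hox-negative progenitor-like ones (973 to 1189 CPM), and no neighboring pair in its order was apart. Ccnd3 was highest in a cluster led by Fabp7 and Aldoc (131 ± 11.6 CPM) and in one led by Ttr and Kcne2 (130 ± 18.1 CPM), which overlapped.

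At E18.5 Ccnd2 was the broadest member, with 19 of 28 clusters at 100 CPM or more against 9 for Ccnd1 and 1 for Ccnd3. Its highest level was 3547 ± 354 CPM in a Barx2 cluster, and the highest Ccnd1 level 636 ± 16.7 CPM in a progenitor-like cluster led by the replication genes Ung and Mcm3. Hox-positive neuron-like cells of E18.5 held 9.10 ± 1.39 CPM Ccnd1, 16.8 ± 1.30 CPM Ccnd2 and 17.99 ± 1.03 CPM Ccnd3 in controls.

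**Figure D5:**
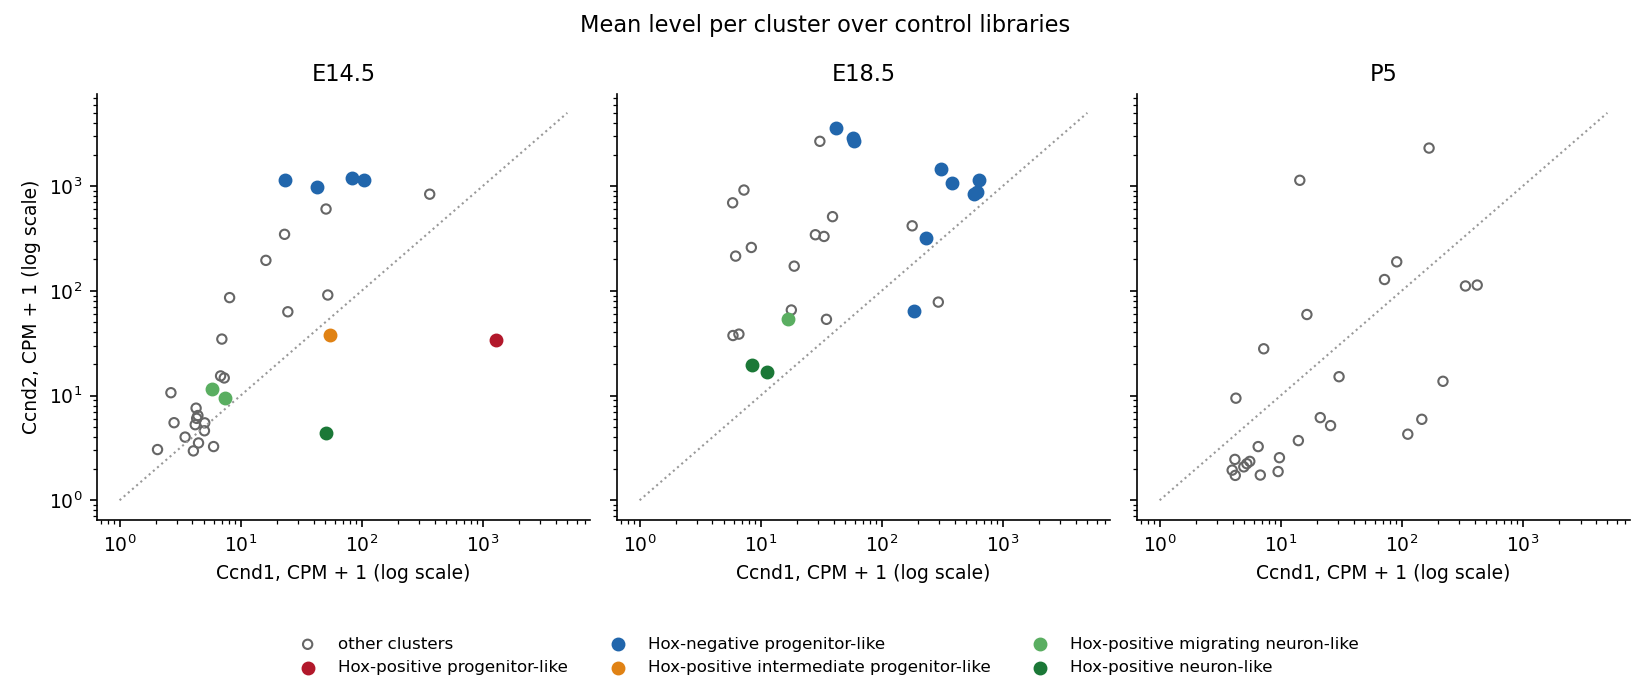
Mean Ccnd1 (horizontal) against mean Ccnd2 (vertical) per cluster over control libraries, in CPM + 1 on log axes, for E14.5, E18.5 and P5. Colors mark the named classes of E14.5 and E18.5 only, so classes at P5 are not marked. A dotted line shows where both are equal. At E14.5 the Hox-positive progenitor-like cluster lies far below the line and the Hox-negative ones far above it.

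In the P5 pontine nuclei, clusters led by markers of glia, vessels, macrophages and dividing cells were among the highest for D-type cyclins. So was a cluster with Neurod1 and Otx2 for Ccnd2. The cluster led by Hoxb5 and Hoxa5 held little (4.25 CPM Ccnd1 and 1.23 CPM Ccnd2). At P5, 582 cells were classed as Hox-negative progenitor-like, and they entered no comparison by region, stage or genotype. Ccnd1 was highest in a cluster led by Pdgfra, Cspg4 and Olig1, markers of oligodendrocyte precursors (419 ± 5.75 CPM, n = 2), followed by a cluster with the endothelial gene Cldn5 from 1 library (335 CPM) and one led by Pf4 and Mrc1 (218 ± 13.6 CPM). Ccnd2 was highest in a cluster with Hist1h1b and Insm1 (2305 CPM) and in one with Neurod1 and Otx2 (1135 CPM), each from 1 library, and next in one with Aqp4 and Fabp7 (188 ± 0.397 CPM, n = 2). Ccnd3 reached 88.8 CPM in the Cldn5 cluster and 81.8 ± 4.10 CPM in one led by Vtn and Col3a1. Of 26 clusters, 12 were under 10 CPM for Ccnd1 and 16 for Ccnd2.

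The genes most like each member across clusters were ranked by Pearson's r of log2(CPM + 1) over control libraries, as a description over clusters that share libraries and depth. At E14.5 over 32 clusters, Ccnd1 was closest to Prss23 (r = 0.875), followed by Itgb3bp, Rdm1, Msl3 and Dtl (0.861 to 0.841). Ccnd2 was closest to Otx2 (0.942), followed by Sp5, Pax3, Hadh and Knop1 (0.926 to 0.882), and Ccnd3 to Vamp3 (0.946), followed by Tpp1, Gsta4, Col4a5 and Hadh (0.946 to 0.938). At E18.5 over 28 clusters the order was Lman1 (0.920), Mtap, Col4a5, Eef1d and Hk2 (to 0.882) for Ccnd1, Plxnb2 (0.871), Pdlim1, Rsrc1, Taf5l and Cald1 (to 0.847) for Ccnd2, and Mr1 (0.916), H2-M3, B2m, Rras and Fkbp10 (to 0.898) for Ccnd3. At P5 over 26 clusters it was Gas2l3 (0.920), Rbl1, Mcm2, Gm26669 and Zfp36l1 (to 0.882) for Ccnd1, Sufu (0.858), Tead2, Cecr2, Boc and Mdk (to 0.829) for Ccnd2, and Vsig10 (0.861), Calcrl, Spry1, Cyr61 and Fbln5 (to 0.823) for Ccnd3. None of the 5 closest genes of a member at one stage was among its 5 closest at another. Between the members themselves, Ccnd1 and Ccnd2 had r = 0.68 at E14.5, 0.42 at E18.5 and 0.60 at P5.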

How the data were processed

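TdTomato-positive cells were sequenced with the 10x 3′ v3.1 kit, which gives 1 tag per transcript, so counts need no length scaling. The authors aligned the reads to mm10 with Cell Ranger (5.0.1 in the methods and in the headers of 12 libraries, 3.1.0 in the headers of 2 E14.5 controls) and deposited UMI counts per gene and barcode. The columns of the 14 libraries were all mapped (0 unmapped), and 0 rows named no gene. Pairs of libraries shared 13 to 67 barcodes.

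Cells with at least 1000 genes and under 5% mitochondrial UMIs were kept, and the highest 7.5% of Scrublet doublet scores were removed (scanpy 1.11.5, Python 3.11.15). Each stage was clustered on 2000 variable genes, without the 3 cyclins, with 30 principal components, 15 neighbours and Leiden resolution 1. Clusters were classed by mean levels: Hox sum at least 500 CPM (Hox-positive) or at most 100 CPM (Hox-negative), and dividing-cell lists at least 2000 CPM (progenitor-like). Other Hox-positive clusters with Pax6 at least 200 CPM and Lhx2 under 400 CPM were classed as intermediate (Atoh1 at least 300 CPM), migrating (Nhlh1 at least 100 CPM, Mapt under 1000 CPM) or neuron-like (Mapt at least 1000 CPM, Nhlh1 under 100 CPM). Clusters whose median UMIs were over 3 times below their libraries', or that were led by markers of other cell types, stayed unnamed. The numerical limits, the Neurod1 restriction and the Barx2 split were chosen after seeing the data, and the members and gene lists were chosen with earlier results of these data known.

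Counts were summed per library and class (at least 10 cells) and tested with edgeR 4.0.16's quasi-likelihood test (TMM, R 4.3.3) over genes found in at least 10% of cells of a group. A call needed a Benjamini-Hochberg FDR under 0.05 and a log2 change over 0.25. Regional tests had the library as a block. The genotype fits had no block in the main design. Same-numbered libraries were littermates, and their deviations correlated at 0.48 to 0.87 in every class and stage checked, so blocked values are given where they change a call. DESeq2 1.42.0, RLE scaling, no detection filter, a 10% mitochondrial limit, Leiden resolution 2, cell gating by at least 3 Hox UMIs, 1 Cell Ranger version and leaving out each library were alternatives. On simulated counts for the regional contrast over 10267 genes, 81% of changes of log2 1 and 98% of log2 2 were recovered. For region by genotype (10575 genes) these shares were 57% and 94%, and for genotype in Hox-positive progenitor-like cells (10107 genes) 69% and 98%. Phase groups used summed S and G2 and mitosis lists (limits 1000 and 2000 CPM), and cells over the G2 and mitosis limit were kept out of the S group. Shares were compared with exact permutation tests (scipy 1.17.1), between genotypes without pairing of littermates. Statements that values did not overlap compare ranges over libraries. The share of all genes without overlap was not computed, so counts of genes without overlap have no background. Named genes were the 3 cyclins, called kinase partners and inhibitors, Cdk4, Cdk6, Mycn, Gli1 and Atoh1, and the 5 genes with the highest Pearson r to each member over clusters. The other genes of the pathway were named after their values were seen.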

Additional observations from a re-analysis of the deposited data

How the results depend on the processing

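Of 666 values of 60 cyclin results under other settings, 593 kept their direction and their side of the threshold, 7 lost a call, 14 gained one and 52 changed sign. The changes of sign were all in values that were not called. The regional differences of Ccnd1 and Ccnd2 and the stage differences of all 3 members stayed called in every setting run. The regional difference of Ccnd3 in controls lost its call with DESeq2 (-0.46), the 10% mitochondrial limit (-0.31) and only Neurod1 clusters (-0.26). Without 1 library it ranged from -0.52 to -0.41 in controls and from -0.59 to -0.40 in Atoh1S193A/-.

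With littermates as a replicate block, Ccnd1 was called between genotypes in Hox-positive (0.36) and Hox-negative (0.28) E14.5 progenitor-like cells, in intermediate cells (1.502) and in all kept E14.5 cells (1.54), as were Ccnd2 (0.35) and Ccnd3 (0.41) in all kept cells. The block changed no other call, and Ccnd3 in Hox-positive progenitor-like cells moved to 0.00. Ccnd1 was also called in intermediate cells with DESeq2 (1.41), with no filter (1.45) and without control or Atoh1S193A/- replicate 2 (range 1.24 to 1.85), and in all kept E14.5 cells with DESeq2 (1.55), no filter (1.53), the 10% mitochondrial limit (1.66) and without Atoh1S193A/- replicate 2 (range 1.47 to 1.66).

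Signs changed as follows, all without a call. Region by genotype: Ccnd1 -0.01 in dividing cells, -0.08 with Neurod1 clusters; Ccnd2 0.23 with DESeq2, 0.95 with 1 Cell Ranger version, 0.29 with the 10% limit, 0.78 at Leiden resolution 2; Ccnd3 0.04 with the 10% limit, 0.03 in dividing cells. Leave-one-out ranges were -0.24 to 0.48, -0.41 to 0.92 and -0.12 to 0.06. Genotype in Hox-positive progenitor-like cells: Ccnd2 0.67 with 1 Cell Ranger version, 0.13 with the 10% limit, 0.62 at resolution 2 (range -0.59 to 0.76); Ccnd3 0.01 with no filter, 0.32 with 1 version, 0.02 with the 10% limit, 0.07 in dividing cells (-0.13 to 0.20). With 1 version, Ccnd1 was -0.11 in migrating and -0.22 in neuron-like cells, and Ccnd2 0.37 in intermediate, -0.49 in migrating and -0.20 in neuron-like cells; these fits kept 1 control library, assumed to vary like the others. At resolution 2, Ccnd3 was 0.10 in neuron-like cells and Ccnd1 0.06 for genotype by stage. The Ccnd2 share in Hox-positive progenitor-like cells was 0.587 points higher as a mean of per-cell shares (range -0.919 to 0.322 points). Other ranges without 1 library were -0.06 to 0.26 (Ccnd3, Hox-negative, E14.5), -0.00 to 0.25 (Ccnd1, all cells, E18.5), -0.66 to 0.42 (Ccnd2, intermediate), -0.05 to 0.14, -0.07 to 0.62 and -0.06 to 0.03 (Ccnd1, Ccnd2 and Ccnd3, migrating), -0.13 to 0.67, -0.09 to 0.89 and -0.16 to 0.08 (the same, neuron-like), -0.33 to 0.07 and -0.16 to 0.04 (Ccnd1 and Ccnd2, genotype by stage), and -0.0364 to 0.0836 points (Ccnd3 share, genotype, E18.5).

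Counts of called genes moved by over 1.5 times in several fits. Across settings they spanned 1132 to 2819 and 486 to 3879 for the regional contrasts in controls and Atoh1S193A/-, and 0 to 81 for region by genotype. Between genotypes they spanned 0 to 106 in Hox-positive and 0 to 395 in Hox-negative E14.5 progenitor-like cells, 0 to 262 in intermediate, 0 to 8 in migrating and 0 to 66 in neuron-like cells, 0 to 1752 and 0 to 15 in all cells of E14.5 and E18.5, 11 to 163 in E18.5 Hox-negative cells and 0 to 249 for genotype by stage. The cause of these changes was not tested. The planned E18.5 tests of Hox-positive progenitor-like clusters, region by stage included, were not run because no such cluster was found. The Hox-positive control class held 71 to 115 cells per library, so its low Ccnd2 and Ccnd3 values rest on 23 to 176 UMIs.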

Other observations

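In the E18.5 control libraries, a pair of small Hox-negative clusters led by Pvalb, Pdlim3 and Fst held the highest mean Ccnd3 of the progenitor-like clusters, at 80.0 ± 26.02 CPM (SD, n = 3) and 65.0 ± 15.6 CPM (n = 2), and a microglial cluster led by Ccl4 and C1qb held 162 CPM Ccnd3 and 293 CPM Ccnd1 in the 1 library with enough cells. In P5 pontine nuclei a cluster led by Cx3cr1 and Trem2 held 146 ± 9.64 CPM Ccnd1, and 3 clusters led by the myelin genes Mag, Mbp or Mobp, 1 of them of low UMI counts, held means of 3.19 to 3.27 CPM Ccnd1.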
